A study of Bos taurus with 2 samples.

Results

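The gene described here is the longest gene model in transcript counts from the longissimus muscle of Qinchuan cattle, a Chinese beef breed, and is called titin throughout. It was chosen by length alone, as the single gene with the largest listed length in both deposited tables, and is 1 gene of the 16174 that had a read in either library. Its identifier in the tables is ENSBTAG00000026986 and its model is 103346 nt long, 3.83 times the length of the next longest model (27018 nt) and 55.2 times the median of 1873 nt. No gene names stand beside the identifiers, so the name titin rests on the length of the model, and nothing in the measured values was used to assign it. Its genome position is not given in the tables.

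Messenger RNA of the long muscle beside the spine was sequenced at 2 stages. The Emb135 library was made from embryos 135 days past insemination, the 30M library from adult cattle aged 30 months, each from the pooled RNA of 3 animals with no genetic change or treatment named in the labels. Uniquely assigned reads numbered 17736812 in Emb135 and 19970007 in 30M. With 1 pooled library per stage there is no replicate: no test between stages was run, each ratio compares 2 libraries, and the 95% intervals given here cover the counting of independent reads only. Reads amplified by PCR without molecular identifiers are not independent molecules, so the true counting error may be larger.

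Titin is a giant protein of striated muscle. A single molecule reaches from the Z-disc, where actin filaments of neighbouring sarcomeres are anchored, to the M-band in the middle of the sarcomere, and it serves as a spring that sets the passive stiffness of the muscle and as a scaffold along which thick filaments are ordered. Its messenger RNA is spliced into many isoforms that differ mostly in the springlike I-band part, and the mix of isoforms is known to change between fetal and adult muscle. The counts used here are summed over the whole gene model and do not separate isoforms.

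Titin had 14140 unique reads in the Emb135 library (95% Poisson interval 13908 to 14375) and 154915 in the 30M library (154145 to 155688). The 30M value was the higher, and the counting intervals lay wide apart. On the RPKM scale, which divides reads by the length of the model in kilobases and by the total reads of the library, the level was 7.71 in Emb135 (7.59 to 7.84) and 75.1 in 30M (74.7 to 75.4). The share of reads was therefore 9.73 times as large in 30M, with an exact 95% interval of 9.56 to 9.90 (Clopper-Pearson, given both counts' sum). This corresponds to a log2 ratio of 3.28 (3.26 to 3.31), or of 3.20 on the log2(RPKM + 0.5) scale that was used for calls. In bulk muscle, more fibres in the sample and more titin RNA per fibre cannot be told apart from these values.

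Calls were made by size alone. A gene counted as higher or lower when it differed 2-fold or more on that scale, its larger RPKM was 1 or above, and its counting interval left out equality. By this rule titin was higher in 30M. Across all 12763 genes that met this minimum, 1665 were called higher, which is 13.0% of them, and 4167 were called lower, 32.6%. Their log2 ratios had a median of -0.53, so the ratio of titin lay 3.73 above the middle gene on the log2 scale. A larger log2 ratio than that of titin was found in 231 genes, 1.81% of those compared. When the 30M values were raised 1.40-fold, so that the median gene among those with an RPKM of 1 or above at both stages stood at equality, the log2 ratio of titin was 3.68 and 227 genes had a larger one.

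Because reads accumulate along the length of a transcript, titin stood at very different places in the 2 rankings. Counted by reads, it was the 184th of 15522 genes in Emb135 and the 13th of 14853 in 30M. Counted by RPKM, it was the 6966th in Emb135 and the 875th in 30M. In Emb135 titin was thus among the leading 1.19% of genes by reads while by RPKM it stood at 44.9% of the ranking, above the 6.22 of the middle gene of all listed and below 9.83, the median of genes with an RPKM of 1 or above. In 30M it was among the leading 5.89% by RPKM and stood 9.55 times above the corresponding median of 7.86. In both rankings titin stood higher in 30M.

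**Figure D1:**
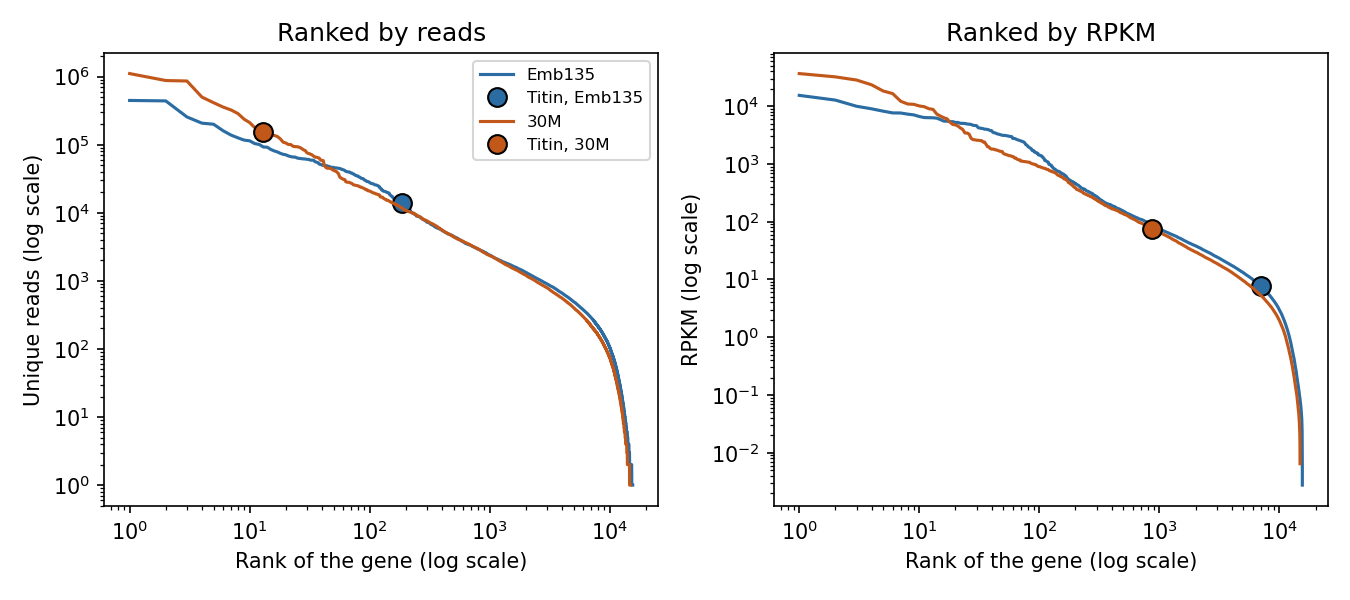
Genes ranked by unique reads (left) and by RPKM (right), both axes on log scales, with 1 line per library and a large circle for titin in each. By reads titin lies at rank 184 in Emb135 and 13 in 30M; by RPKM the same circles lie at 6966 and 875.

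The genes next to titin in the ranking by reads show how much of its place comes from length. In Emb135 the gene just above it had 14256 reads on a model of 7647 nt and an RPKM of 105.1, and the gene just below had 14040 reads on 7332 nt and an RPKM of 108.0. In 30M its neighbours were far shorter, with 165594 reads on 681 nt at an RPKM of 12176 and 149357 reads on 684 nt at an RPKM of 10934. With a similar number of reads, the RPKM of these genes was 13.6 and 14.0 times that of titin in Emb135, and 162.2 and 145.7 times in 30M. Of the 12 genes with more reads than titin in 30M, the longest model was 5916 nt and the lowest RPKM was 5298.

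Seen from the ranking by RPKM, the neighbours of titin had few reads. In Emb135 the gene just above it had 1186 reads on a model of 8666 nt, and the gene just below had 429 reads on 3137 nt. In 30M the neighbours had 5805 reads on 3868 nt and 958 reads on 640 nt. Of the 6965 genes above titin by RPKM in Emb135, 6782 had fewer reads than titin, and in 30M this held for 862 of 874. A gene of median length at the RPKM of titin would have held 256.3 reads in Emb135 and 2808 in 30M.

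Titin took 0.0797% of all reads in Emb135 (exact 95% interval 0.0784 to 0.0810%) and 0.776% in 30M (0.772 to 0.780%). Both intervals are narrow because they rest on 14140 and 154915 reads, and they cover counting error only. On a model this long, 1 read was worth an RPKM of only 0.000546 in Emb135 and 0.000485 in 30M. The gain of 0.696 percentage points was the 11th largest of any gene. As a share of summed RPKM, which weighs transcripts per length, titin held 0.00103% in Emb135 and 0.0108% in 30M. The read share was thus 77.4 times the RPKM share in Emb135 and 71.7 times in 30M.

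Other long gene models served as background. The tables held 22 models of 15000 nt or more, titin included, none of them listed at different lengths in the 2 tables. Of the other 21, 12 reached an RPKM of 1 at one stage or both, and the remaining 9 had at most 38 reads in Emb135 and at most 17 in 30M. Of these 12 models, 5 were called higher in 30M, 7 were neither and none was lower, against 13.0% higher and 32.6% lower among all genes compared. After the 1.40-fold rescaling, 7 of the 12 were higher and none lower, against 2581 higher and 2714 lower of 12932 genes. One of the 5, a model of 15260 nt with 92 reads in Emb135 (RPKM 0.340) and 3239 in 30M (RPKM 10.6), passed the minimum only through 30M. Among the 11 with an RPKM of 1 or above at both stages, 4 were higher as deposited. The median log2 ratio of the 12 was 0.79, against -0.53 for all genes, and the ratios ran from -0.84 to 3.73. The largest was that of this model of 15260 nt and lay above the 3.20 of titin. The count is small and was not tested.

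**Figure D2:**
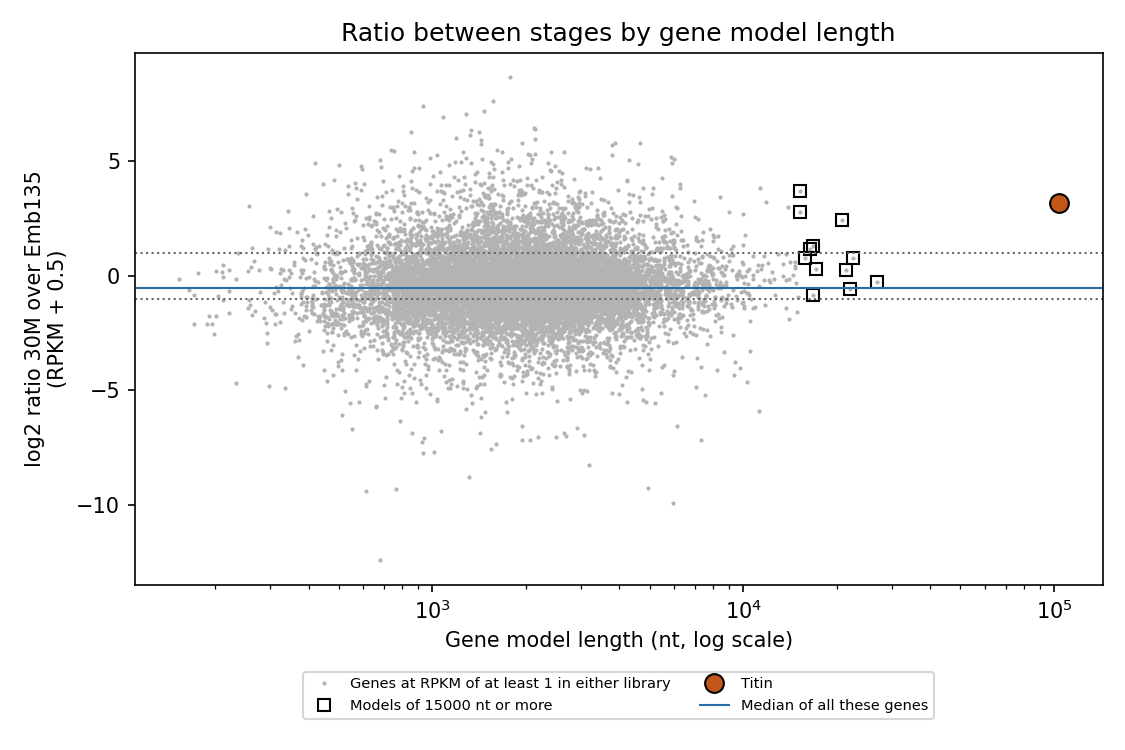
Log2 ratio of 30M over Emb135 on the RPKM + 0.5 scale against gene model length (log scale) for the 12763 genes compared; squares mark models of 15000 nt or more, the circle marks titin, dotted lines mark 2-fold in either direction and the solid line is the median of all these genes, -0.53. Titin stands alone at the right at 3.20.

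In the next shorter classes of gene models, which direction held more genes depended on the scaling. Among the 58 models of 10000 to 15000 nt with enough RPKM, as deposited 5 were higher and 14 lower, with a median log2 ratio of -0.14, and 12 were higher and 8 lower after rescaling by the median ratio, with a median of 0.30. Among the 632 models of 5000 to 10000 nt, 14.1% were higher and 27.4% lower as deposited, with a median of -0.38. After rescaling, 21.0% of 634 such models were higher and 16.9% lower, with a median of 0.053. The count for the longest class also depends on where the class begins: from 10000 nt on, 11 models were higher and 14 lower as deposited.

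By reads, titin was the second of the 22 long models in Emb135 and the first in 30M. In Emb135 a model of 16789 nt had more, with 16009 reads. By RPKM titin was the 7th in Emb135 and the 4th in 30M, where models of 20768 nt (RPKM 202.8), 16789 nt (134.0) and 15265 nt (131.5) stood above it. The order of the last 2 cannot be read as a difference, since 134.0 and 131.5 come from single libraries and lie close together. In Emb135 the RPKM of titin, 7.71, lay next to 7.98 for a model of 22570 nt, and these neighbours likewise lie close with no replicate to separate them. Titin held 21.3% of the reads of all 22 long models in Emb135 and 44.1% in 30M. The other 21 together took 0.295% of all reads in Emb135 and 0.982% in 30M, a ratio of 3.33.

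**Figure D3:**
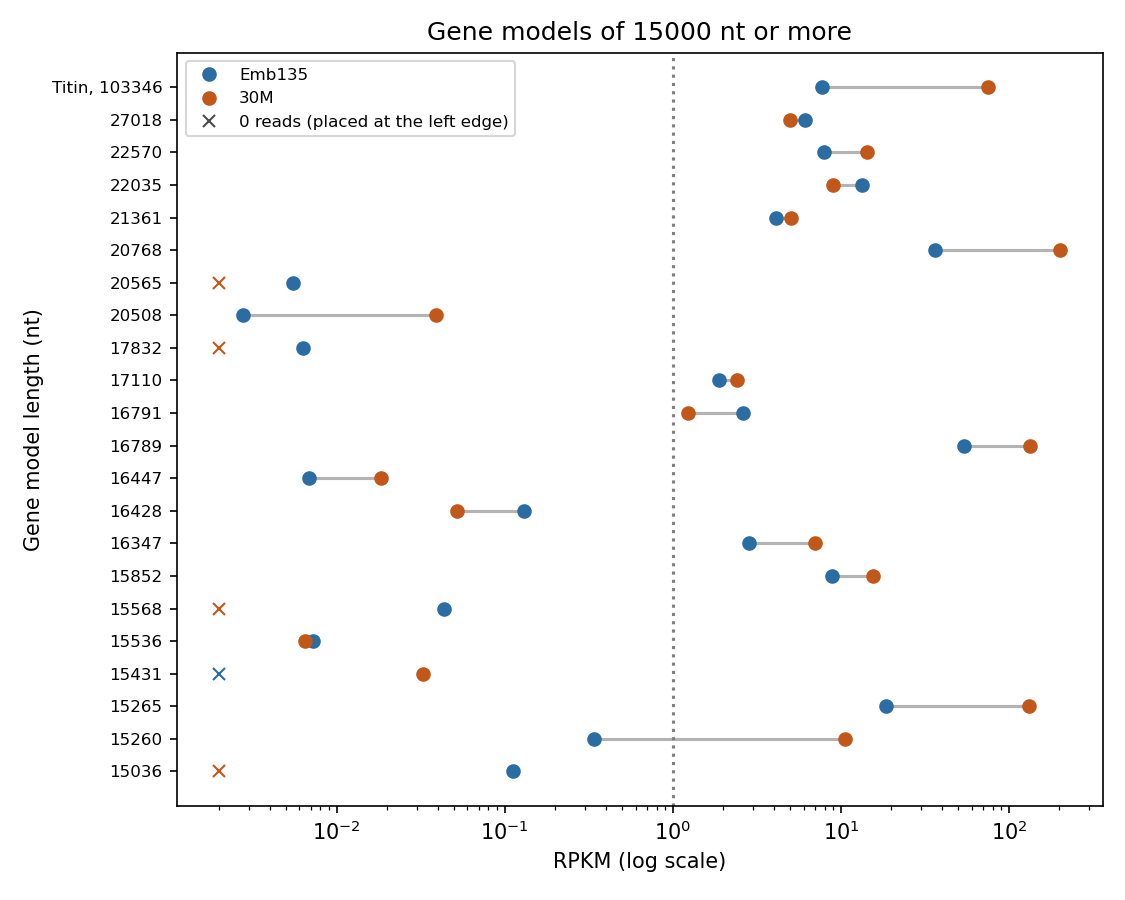
RPKM (log scale) of the 22 gene models of 15000 nt or more, 1 row per model with its length in nt, blue for Emb135 and orange for 30M; crosses at the left edge stand for 0 reads and the dotted line marks an RPKM of 1. Titin goes from 7.71 to 75.1, and models of 20768, 16789 and 15265 nt are above it in both libraries.

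Likeness of pattern was measured by the distance between log2 ratios among the 11 other long models whose RPKM was 1 or above at both stages. With 2 libraries the ratio is the whole pattern, so likeness says little. The nearest was ENSBTAG00000006999, whose model is 15265 nt long, at 5025 reads in Emb135 (RPKM 18.6) and 40081 in 30M (RPKM 131.5). Its log2 ratio of 2.79 was 0.41 below that of titin, and its ratio of read shares was 7.08 (95% interval 6.88 to 7.30). The next nearest, the model of 20768 nt, had 13472 reads in Emb135 (RPKM 36.6) and 84119 in 30M (RPKM 202.8), a ratio of 5.55 (5.45 to 5.65). Neither counting interval reaches that of titin. The model of 15260 nt was left out of this comparison by its RPKM of 0.340 in Emb135. Its log2 ratio, 3.73, was larger than that of titin. The second longest model of the tables, ENSBTAG00000009362 with 27018 nt, was close to equality. It had 2933 reads in Emb135 (RPKM 6.12) and 2706 in 30M (RPKM 5.02), a log2 ratio of -0.26, and was called neither. Rescaling by the median ratio turned this ratio to 0.18, again called neither.

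The libraries also differed in how much of the titin model was read. The deposited coverage, taken here as the percentage of the model with at least 1 read, was 79.69% in Emb135 and 97.2% in 30M. This is 82356 nt covered and 20990 nt without a read in Emb135, against 100452 nt covered and 2894 nt without a read in 30M. Coverage is listed to 0.01%, so each figure moves in steps of about 10.3 nt. The figures also rest on the reading of coverage as a percentage, which is not exact. The gain was 17.51 percentage points, or 18096 nt. On this reading, at least 86.2% of the bases without a read in Emb135 had one in 30M.

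The coverage of titin was set beside that of reads spread evenly over the model, which is a reference and not a test. With reads of 90 nt the mean depth over the model was 12.3 in Emb135 and 134.9 in 30M. At a depth of 12.3, reads placed at random with even density would leave 0.464 nt without a read. The 20990 nt observed lie far above this, so the Emb135 reads were spread unevenly along the model. Even placement is not met by other genes either. The 1511 other genes at a mean depth of 10 to 15 in Emb135 had a median coverage of 96.5%, and 105 of them, 6.95%, were covered less than titin.

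Models of 5000 nt or more gave a narrower comparison, in which no difference was tested. Of the 111 other models of 5000 nt or more at a depth of 10 to 15 in Emb135, 2 had a lower coverage than titin, and the median was 97.5%. In 30M, 23 other models of that length had a depth of 100 to 200, with a median coverage of 99.8%, and 2 of them lay below the 97.2% of titin. Other genes of any length at that depth in 30M numbered 568, with a median coverage of 99.1%. Of these, 155 (27.3%) were covered less than titin. The second longest model was also covered in part only, at 74.71% in Emb135 and 83.52% in 30M, with fewer reads in 30M than in Emb135. The 3 long models above titin in both libraries were covered to 96.86% or more at either stage.

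**Figure D4:**
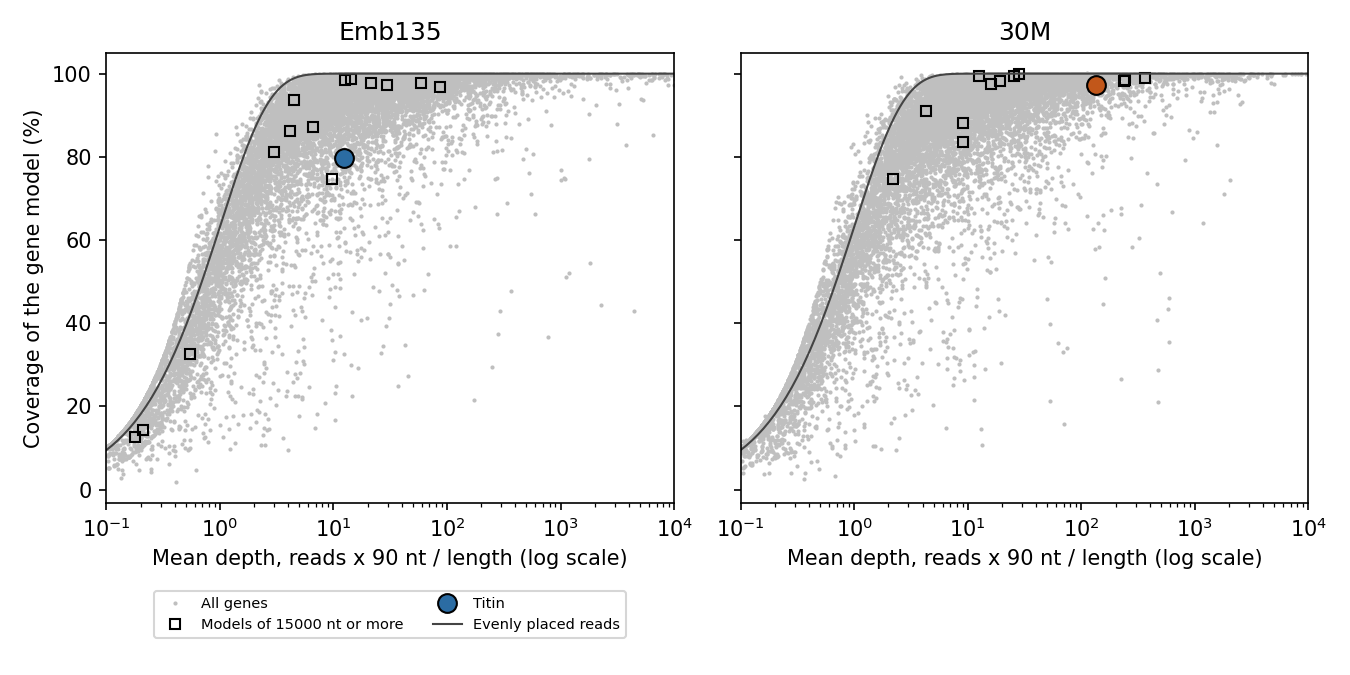
Coverage of each gene model (percent) against mean depth (reads times 90 nt over length, log scale) in Emb135 (left) and 30M (right); grey points are genes, squares are models of 15000 nt or more, the large circle is titin and the line is the coverage of evenly placed reads. Titin lies at 79.69% and a depth of 12.3 in Emb135, well under the line, and at 97.2% and 134.9 in 30M.

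Depth and coverage of titin were both higher in 30M, and which stretches of the model were read at each stage was not analysed here, since the tables hold no positions. For comparison, 18 other genes had a mean depth of 10 to 15 in Emb135 and of at least 100 in 30M. Most of them had little room to gain, with a median coverage of 96.8% in Emb135 and 99.1% in 30M, and their differences ran from -1.25 to 11.7 points. Only 2 of the 18 started below titin. They went from 71.25% to 78.75% and from 77.4% to 80.1%, on models of 894 and 1261 nt. A larger number of reads and a different part of the gene being read cannot be told apart for titin itself. A difference in RNA integrity between the 2 pools was not tested either. Divided by the covered bases of each library in place of the full model, the RPKM of titin was 9.68 in Emb135 and 77.2 in 30M. The ratio on this basis was 7.98, against 9.73 with the full length.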

How the data were processed

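Per the labels' protocols, oligo(dT) beads were used to isolate messenger RNA, and fragmented, randomly primed cDNA was read on an Illumina HiSeq 2000. The authors deposited 1 table per library. Per the file headers it gives a count of unique reads per gene, the length of the gene model, a coverage signal and an RPKM. The counts added up to the header totals. The deposited RPKM was recomputed with a relative error of at most 2.18e-14. A gene missing from a table was taken at 0 reads. Genes with 1 read all had 90 nt covered, taken as the read length; 1 gene per library had a coverage just above 100, so the reading as a percentage is not exact. For the aligner, genome build and annotation, the entry is: not given in the sources used here.

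None of the 37063 genes of the reference table (ARS-UCD2.0) carries an Ensembl identifier and 0 identifiers matched, so the planned lists of sarcomere genes and cell type markers were not analysed here. The gene and the background were chosen with earlier results of these data known. Identifiers are printed for the longest and second longest models and the model nearest in log2 ratio. Count models were not used, since 1 library per stage gives no estimate of spread. Calls were tested on simulated data for 16174 genes with counting noise only. The rule found 98 of 100 true 3-fold differences and 100 of 100 true 8-fold differences, with 3 of 12132 unchanged genes called. The simulated differences were balanced up and down, with no spread between animals and no shift shared by most genes. In the real data the median log2 ratio was -0.53, so the rate of unchanged genes called does not carry over. True differences were placed only in genes above a limit of mean RPKM stricter than the minimum for calls. Recovery among the weakest genes called was therefore not measured. Alternatives covered pseudocount, scaling, minimum RPKM, fold, length limit, thinning, ranking and read length. Python 3.11.15, NumPy 2.4.6, pandas 2.3.3, SciPy 1.17.1 and Matplotlib 3.10.9 were used.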

Additional observations from a re-analysis of the deposited data

How the results depend on the processing

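Titin was called higher in 30M under each alternative that gave it a call. Covered length gave a ratio without a call, and the length limits, rankings and read length gave no call of titin. For titin, at an RPKM of 75.1 in 30M, a minimum RPKM of 5 or none could not alter the call. Its log2 ratio of 3.20 became 3.13 with a pseudocount of 1, 3.68 after scaling by the median ratio, 3.73 by the trimmed mean of log ratios, 3.62 after 75th percentile scaling, 3.58 after leaving the 50 most abundant genes out of the totals, 3.33 with TPM and, added after the data were seen, 2.93 with covered length; it was 3.27 with a pseudocount of 0.1, 3.20 with thinning and 3.21 with a total without titin. Its share of reads became 0.114% in Emb135 and 1.42% in 30M without the 50 most abundant genes, and 0.00103% and 0.0108% as summed RPKM. Among the long models its rank was 2 and 1 by reads and 7 and 4 by RPKM. Of the models of 15000 nt or more, 6 with titin were higher and 0 lower; 8 were higher under the median ratio, the trimmed mean, the 75th percentile and totals without the 50 leading genes, and 4 at 4-fold; a pseudocount of 0.1 gave 1 lower, a limit of 10000 nt gave 11 higher and 14 lower, and 20000 nt gave 2 higher. Over all genes, 1665 higher and 4167 lower became 2581 and 2714 under the median ratio, 2695 and 2589 under the trimmed mean and 698 and 1319 at 4-fold; of all calls, 71.5% were lower as deposited, against 51.3% (median ratio), 49.0% (trimmed mean), 54.0% (75th percentile) and 55.8% (without the 50 leading genes). Scalings set from the genes' own ratios bring counts near balance by construction. No paired analysis was possible because there was a single library per stage, which also left no replicate to omit. Titin had 14140 reads in Emb135 and 154915 in 30M, but 9 long models had too few reads to compare. Whether depth limited the coverage of titin in Emb135 was not tested.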
